A study of Mus musculus with 12 samples.

Results

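Mouse genes that handle arsenic and other reactive compounds, 10 in all, were followed: the arsenic methyltransferase As3mt, the glutathione transferases Gsto1, Gstm1, Gstm2, Gstp1, Gsta4, Gstt1 and Mgst1, and the efflux pumps Abcc1 and Abcc4. They were chosen by gene symbol and were represented by 16 of the 45101 probe sets of the array, and by 10 of the 20753 genes tested. The cells were mouse embryonic fibroblasts from embryos of day 12.5 to 14.5, immortalised with the large T antigen of SV40. The 4 groups were homozygous GADD34 knockout (KO) cells given 0.1 mM sodium arsenite for 2 h, untreated KO cells, wildtype (WT) cells given the same arsenite, and untreated WT cells. For all 12 samples the strain field names the Ppp1r15A tm1.1.Ajf allele with the B6.129P2 and C57Bl/6 backgrounds, and all cells grew in medium with 50 µM beta-mercaptoethanol, itself a thiol. Each of 3 replicate experiments held all 4 groups, so that n = 3 arrays per group throughout. The labels do not say how many cell lines stand for each genotype, so differences between KO and WT cells and differences between independently derived lines cannot be told apart. The comparisons ask whether 2 h of arsenite moved the transcripts of arsenic disposal, and whether that depended on GADD34.

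Arsenite enters cells as a neutral molecule or through sugar and water channels and binds thiols. Cells bind it to glutathione, methylate it through AS3MT with S-adenosylmethionine as the methyl donor, and export the glutathione conjugates through ATP-driven pumps such as MRP1, the product of Abcc1. Glutathione transferases join glutathione to reactive compounds, and many of their genes are targets of NRF2, a transcription factor that is released when its partner KEAP1 is modified by electrophiles or arsenite. GADD34, encoded by Ppp1r15a, is the stress-induced subunit that directs protein phosphatase 1 to eIF2-alpha and lets protein synthesis resume.

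The values are log2 signals as deposited, where 1 unit is a doubling, and differences are in the same unit, given ± SE. Signal under 5.35, the 40th percentile of all array values, may be background. Levels of different probe sets cannot be compared, since each set has its own response. For Ppp1r15a, KO minus WT was -5.74 ± 0.22 under arsenite and -2.31 ± 0.22 untreated (limma adjusted p = 2.34e-08 and 2.36e-05). It is not known here whether its probe set covers the deleted sequence. Of 12 fibroblast markers, all 12 lay above 5.35 in some group and 10 did so on all 12 arrays. The exceptions were Thy1, with means of 5.23 (KO arsenite), 5.14 (KO untreated), 6.89 (WT arsenite) and 7.32 (WT untreated), and Lum, with means of 5.30, 5.50, 4.31 and 4.14 in the same order. The collagen gene Col1a2 averaged 14.64 in KO and 10.31 in WT cells under arsenite. Col1a1 went the other way, at 11.61 in KO and 11.99 in WT cells. Col3a1 (10.59 and 10.04) and Col5a1 (12.12 and 11.36, in the same order) were higher in KO cells by less than Col1a2. Markers of other cell types were also read. Above 5.35 in some group lay 5 of 8 epithelial, 5 of 8 muscle, 5 of 8 neural and 2 of 8 endothelial ones. The same held for 4 of 7 measured blood and immune and 4 of 6 measured liver markers. The epithelial mean by array ran from 5.42 to 5.85 in KO and from 5.45 to 5.82 in WT cells. The KO arrays of experiment 2 stood apart from the other KO arrays. Between 456 and 780 genes differed by over 1 between them and the other KO arrays of the same treatment, against 249 and 401 between the KO arrays of experiments 1 and 3 and 115 to 183 within the WT groups. For the 10 genes, differences and calls that rest on these arrays are given with and without them, a choice made after the data were seen. List counts without them are given for some lists only, and correlations between genes use all 12 arrays.

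RefSeq promoter sequences were found for 8 of the 10 genes, which have 11 start sites in all. Each was searched on both strands, from 250 bases before to 50 bases after the start, for the antioxidant response element core TGANNNNGC, to which NRF2 binds, and for the metal response element cores TGCACNC and TGCGCNC. Gstp1, Gstt1, Mgst1 and Abcc4 held the first motif, which 41.3% of all 32851 promoter sequences of that length also hold. Gstm1, Gstt1 and Abcc4 held the second, found in 25.7% of them, and As3mt, Gsto1 and Gstm2 held neither. Gstp1 is shown first and in full, as the gene with signal above 5.35 that differed between the genotypes with and without the replicate term in the fit. Its 250 bases before the start site are at chr19:4037913-4038162 (GRCm38.p6, minus strand), with the matches in capitals. These matches begin 74 and 9 bases before the start, and the other match in the window searched begins 29 bases after it.
Gstp1: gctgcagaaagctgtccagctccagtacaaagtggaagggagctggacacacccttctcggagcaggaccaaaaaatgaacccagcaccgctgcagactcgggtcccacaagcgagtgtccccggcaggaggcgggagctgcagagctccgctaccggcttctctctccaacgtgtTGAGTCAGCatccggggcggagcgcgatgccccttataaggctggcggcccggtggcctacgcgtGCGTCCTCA
The next sequences are 1 antioxidant element match in each of the 3 other genes with 10 bases on either side, shown to compare the bases between the fixed letters. That of Gstt1 (chr10:75797802-75797830, minus strand) begins 89 bases before the start, that of Mgst1 (chr6:138140461-138140489, plus strand) 56 bases before the outer of its start sites, and that of Abcc4 (chr14:118676936-118676964, minus strand) 23 bases before the inner of its start sites.
Gstt1: tgctggccgcTGAGAGAGCcctgcgctct
Mgst1: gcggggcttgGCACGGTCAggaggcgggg
Abcc4: aataatctcgTGACTCTGCcgtggtggat
The match of Mgst1 is the reverse complement of the core. At the outer start of Abcc4, an antioxidant core 108 bases before the start overlaps a metal core that begins 109 bases before it, and another antioxidant core begins 25 bases before the start. A match is a description of the letters, and binding was not measured.

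**Figure D1:**
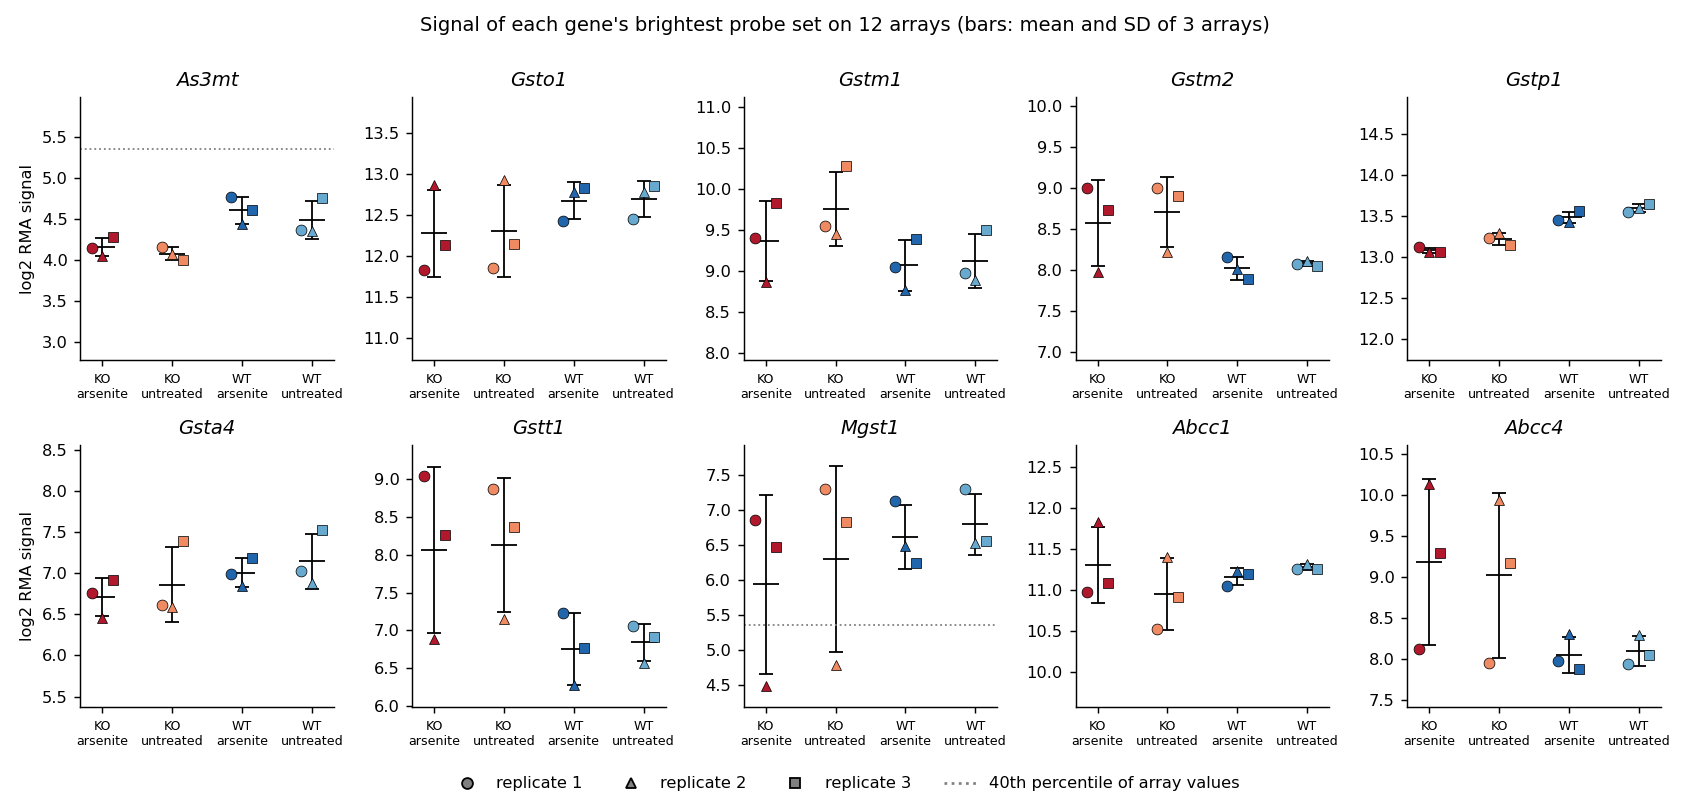
The log2 signal of the brightest probe set of each of the 10 genes is plotted for the KO arsenite, KO untreated, WT arsenite and WT untreated groups, left to right, with a symbol per replicate experiment and bars for the mean and SD of 3 arrays. The triangles of replicate 2 lie apart from the other KO arrays for Gstt1, Mgst1 and Gsto1, whereas the 6 KO arrays of Gstp1 lie between 13.06 and 13.29, all below the WT arrays. Each panel has its own axis range.

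Arsenite for 2 h changed none of the 10 genes past the threshold of a limma adjusted p of 0.05 in either genotype. In KO cells 0 of 10 were called, where 7.55% of all genes were (1566 of 20753), and in WT cells 0 of 10, where 2.12% were (441 genes). At an unadjusted p under 0.05 the counts were also 0 and 0. The members' differences ran from -0.39 to 0.35 in KO cells with a median of -0.10, against 0.03 over all genes. In WT cells they ran from -0.18 to 0.11 with a median of -0.07, against -0.01 over all genes. The difference of the responses, KO minus WT, passed for 0 of 10 members, none with an unadjusted p under 0.05, and for 0.0337% of all genes, which is 7 genes. With the replicate experiment as a block 14.7% of all genes were called in KO cells, 4.88% in WT cells and 0.0578% for the difference. Of the members 1 (Gstm1, lower), 0 and 0 were then called, in the same order. With the KO arrays of experiment 2 left out, 0 members were called in KO cells, where 4.24% of all genes were.

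The genotype comparison had more calls. Without the block, As3mt and Gstp1 were lower in KO cells both under arsenite and untreated, and no member was higher. These 2 of 10 stand beside 21.1% of all genes called under arsenite and 20.1% untreated, so the share called was near the background. With the block 4 members were called under arsenite (Gstt1 and Abcc4 higher, As3mt and Gstp1 lower) and 5 untreated (Gstm1, Gstm2 and Gstt1 higher, As3mt and Gstp1 lower). The block raised the background to 30.2% and 29.2%. The median KO minus WT difference of the members was -0.08 under arsenite and -0.31 untreated, against 0.03 and -0.01 over all genes. In these bulk samples fewer cells of a type and less RNA per cell cannot be told apart.

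**Figure D2:**
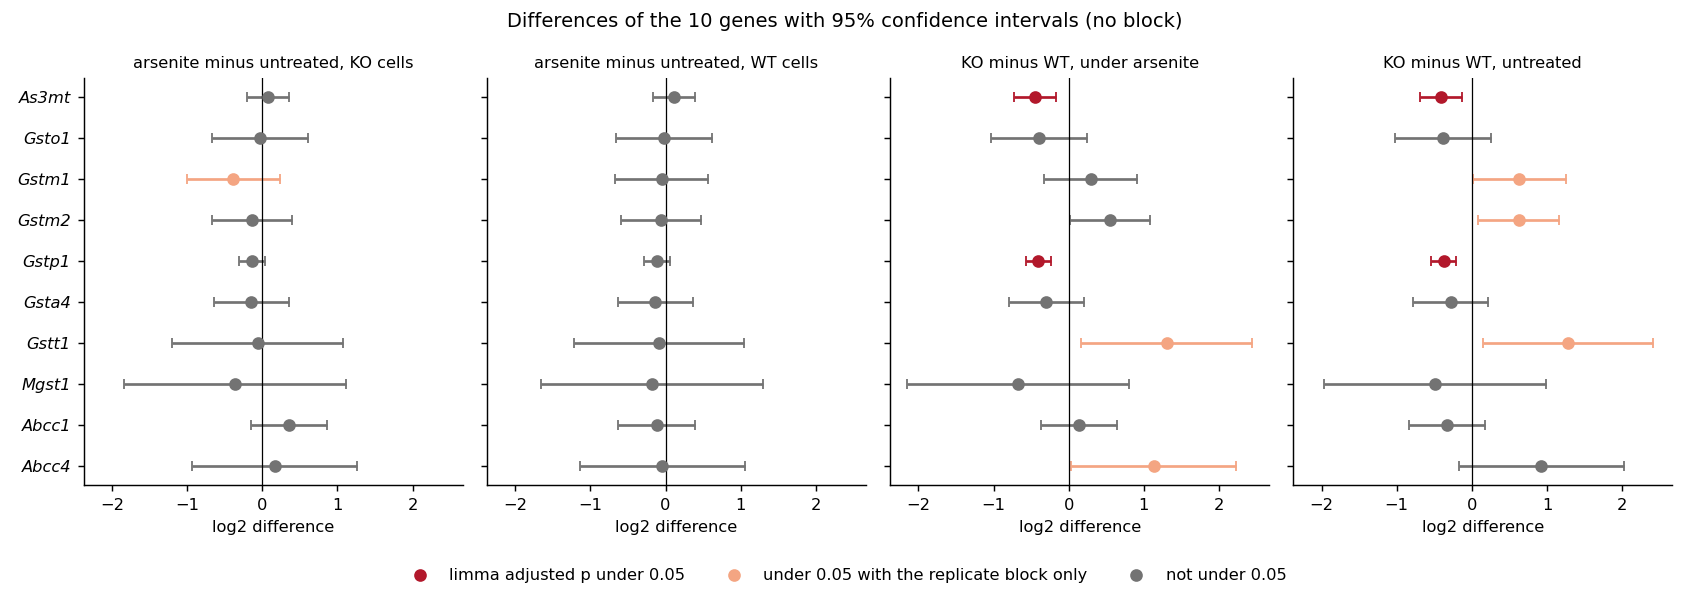
Log2 differences of the 10 genes with 95% confidence intervals from the limma fit without a block are plotted for arsenite minus untreated in KO and in WT cells and for KO minus WT under arsenite and untreated (12 arrays, 3 per group). As3mt and Gstp1 are the red points, at -0.45 and -0.40 under arsenite and -0.41 and -0.37 untreated, and the intervals of Gstt1, Mgst1 and Abcc4 are the widest.

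As3mt transfers methyl groups to trivalent arsenic. Its single probe set read 4.15, 4.05 and 4.28 on the KO arsenite arrays, against 4.77, 4.45 and 4.61 on the WT arsenite arrays. Untreated KO arrays read 4.16, 4.08 and 4.01, against 4.36, 4.36 and 4.76 on untreated WT arrays. All KO arrays lay below all WT arrays of the same treatment, yet 0 of 12 arrays reached 5.35, so all these signals may be background. The KO minus WT difference was -0.45 ± 0.13 under arsenite (limma adjusted p = 0.0259) and -0.41 ± 0.13 untreated (limma adjusted p = 0.0387). With those of experiment 2 left out of the KO groups the differences were -0.39 and -0.41, with limma adjusted p = 0.0916 and 0.0766. Without the block, leaving out single arrays also ended the As3mt calls: WT arsenite 1 or 3 and KO arsenite 1 or 2 under arsenite, and WT untreated 3, WT arsenite 3 or any of the untreated KO arrays untreated. Arsenite minus untreated gave 0.08 ± 0.13 in KO and 0.11 ± 0.13 in WT cells, which were not called.

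Gstp1 encodes the pi class transferase, a cytosolic enzyme that conjugates glutathione to electrophiles and also binds stress kinases. Under arsenite its signal was 13.12, 13.06 and 13.07 on KO arrays, against 13.45, 13.43 and 13.56 on WT arrays. Untreated, KO arrays gave 13.23, 13.29 and 13.14, against 13.55, 13.60 and 13.64 on WT arrays. The KO and WT values did not overlap in either treatment. The difference was -0.40 ± 0.08 under arsenite (0.757-fold, limma adjusted p = 0.00322) and -0.37 ± 0.08 untreated (0.771-fold, limma adjusted p = 0.00505), and the call held without the KO arrays of experiment 2 (limma adjusted p = 0.0116 and 0.00921). The 4 group means lay in the order KO arsenite (13.08 ± 0.03, SD), KO untreated (13.22 ± 0.07), WT arsenite (13.48 ± 0.07) and WT untreated (13.60 ± 0.05). Arsenite gave a lower value than no treatment in each experiment, with differences of -0.11, -0.23 and -0.08 in KO cells and -0.09, -0.17 and -0.08 in WT cells. These neighbours in the order did not pass (limma adjusted p = 0.333 in KO and 0.646 in WT cells, and 0.264 and 0.493 with the block). Only 1 probe set, of a kind that can match several transcripts, read Gstp1, and signal from its close relative Gstp2, which adjoins it in RefSeq and had no probe set of its own among the genes tested, cannot be told apart. Gstp3, the next gene, had its own probe set (5.52 to 5.83 over the 12 arrays), with KO minus WT differences of -0.0043 ± 0.10 under arsenite and -0.005 ± 0.10 untreated that were not called.

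Gstm1 and Gstm2 are mu class transferases that lie in 1 cluster on mouse chromosome 3. Under arsenite Gstm1 gave 9.40, 8.87 and 9.83 on KO arrays, against 9.04, 8.77 and 9.39 on WT arrays, a difference of 0.30 ± 0.28 that was not called without the block or with it (limma adjusted p = 0.545 and 0.0559). Untreated, it gave 9.54, 9.45 and 10.27 on KO arrays, against 8.98, 8.89 and 9.49 on WT arrays. Replicate 3 was the highest in both genotypes, so the groups overlapped although KO was above WT within every experiment, by 0.56, 0.56 and 0.78. The difference was 0.63 ± 0.28 (limma adjusted p = 0.152), and it passed with the replicate block (adjusted p = 0.000982). Arsenite minus untreated in KO cells was -0.14, -0.58 and -0.44 by experiment. That response was -0.39 ± 0.28, which did not pass without the block and did with it (limma adjusted p = 0.475 and 0.0317), and in WT cells it was -0.05 ± 0.28. With the KO arrays of experiment 2 left out it was -0.29, which passed neither without the block nor with it (limma adjusted p = 0.7 and 0.153). In those fits the genotype difference under arsenite was 0.55 without the block (limma adjusted p = 0.198) and 0.41 with it, where it passed (limma adjusted p = 0.0192), and the untreated one was 0.79 and 0.65 (limma adjusted p = 0.0636 and 0.00205). The difference between these responses, -0.34 ± 0.40, was not called (limma adjusted p = 0.999).

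Gstm1 had 3 further probe sets, which gave KO minus WT differences of 0.69, 0.68 and 0.36 untreated. Their arsenite differences in KO cells were -0.40, -0.39 and -0.17. All 4 sets were thus higher in KO cells untreated and lower under arsenite in KO cells. When every probe set was tested on its own, 1 of them, at 0.69 ± 0.21, passed untreated without the block (limma adjusted p = 0.0453). The brightest and 1 more of the 4 Gstm1 sets are of a kind that can match related transcripts.

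Gstm2 had 1 probe set. Under arsenite KO arrays read 8.99, 7.98 and 8.73, against 8.16, 8.01 and 7.89 on WT arrays, and there the KO array of experiment 2 fell among the WT arrays. Untreated KO arrays read 8.996, 8.22 and 8.90, against 8.07, 8.11 and 8.05 on untreated WT arrays, without overlap. The difference was 0.55 ± 0.24 under arsenite (limma adjusted p = 0.15, and 0.0518 with the block) and 0.63 ± 0.24 untreated (limma adjusted p = 0.103, and 0.03 with the block). Leaving out the KO arrays of experiment 2 gave 0.84 and 0.87, which both passed (limma adjusted p = 0.000613 and 0.000514). Leaving out the KO arsenite array of experiment 2 alone also let both pass (limma adjusted p = 0.0126 under arsenite and 0.029 untreated), as did, for the untreated value, leaving out the untreated one (limma adjusted p = 0.0232). Arsenite moved it by -0.14 ± 0.24 in KO and -0.06 ± 0.24 in WT cells, which were not called.

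Gstt1, a theta class transferase that acts on small halogenated compounds, had the largest KO minus WT difference of the 10 genes. Under arsenite KO arrays gave 9.04, 6.89 and 8.26, against 7.23, 6.28 and 6.76 on WT arrays. Untreated, KO arrays gave 8.86, 7.15 and 8.37, against 7.06, 6.58 and 6.91 on WT arrays. KO was above WT within each experiment, and only the KO arsenite array of experiment 2 fell below a WT array of that treatment. The difference was 1.30 ± 0.52 under arsenite (2.47-fold, limma adjusted p = 0.105) and 1.28 ± 0.52 untreated (2.43-fold, limma adjusted p = 0.114), and both passed with the block (adjusted p = 0.00255 and 0.00296). Leaving out the KO arrays of experiment 2 gave 1.89 and 1.77, which passed (limma adjusted p = 0.00144 and 0.00215). With the KO arsenite array of experiment 2 alone left out both passed (limma adjusted p = 0.0119 and 0.0416), and with the untreated one left out the untreated value did (limma adjusted p = 0.0307). The arsenite response was -0.06 ± 0.52 in KO cells and -0.09 ± 0.52 in WT cells.

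Gsto1, the omega class transferase that can reduce pentavalent methylated arsenic, had 2 probe sets. Under arsenite its brighter set gave 11.83, 12.86 and 12.14 on KO arrays, against 12.42, 12.78 and 12.82 on WT arrays. Untreated KO arrays gave 11.85, 12.93 and 12.15, against 12.45, 12.78 and 12.85 on WT arrays. The KO arrays of experiments 1 and 3 lay below every WT array, and those of experiment 2 lay above all of them. The difference was -0.40 ± 0.29 under arsenite and -0.39 ± 0.29 untreated (limma adjusted p = 0.407 and 0.436, and 0.114 and 0.128 with the block). Without the KO arrays of experiment 2 it was -0.69 and -0.70, and passed in both (limma adjusted p = 0.0168 and 0.0167). The other set gave -0.29 and -0.29 with all arrays. Arsenite minus untreated was -0.03 in KO and -0.02 in WT cells (SE 0.29).

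Gsta4 encodes the alpha class transferase that conjugates the lipid peroxidation product 4-hydroxynonenal. Its signal was 6.76, 6.46 and 6.92 on KO arsenite arrays, against 6.99, 6.85 and 7.19 on WT arsenite arrays. Untreated KO arrays gave 6.62, 6.58 and 7.39, against 7.03, 6.88 and 7.53 on WT arrays. Each KO array was below the WT array of its own experiment, while the groups overlapped. The difference was -0.30 ± 0.23 under arsenite and -0.28 ± 0.23 untreated and was not called without the block (limma adjusted p = 0.437 and 0.473) or with it (0.0808 and 0.0952).

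Mgst1, the microsomal transferase that also reduces lipid peroxides, was read by 2 probe sets, of which the second lay under 5.35 on all 12 arrays. On the brighter set KO arsenite arrays gave 6.86, 4.48 and 6.47, against 7.13, 6.48 and 6.24 on WT arsenite arrays. Untreated KO arrays gave 7.29, 4.79 and 6.82, against 7.30, 6.53 and 6.55 on untreated WT arrays. The KO arrays of experiment 2 were the only ones under 5.35. The difference of -0.68 ± 0.67 under arsenite and -0.49 ± 0.67 untreated was not called (limma adjusted p = 0.564 and 0.706), and without those arrays it was 0.05 and 0.26 (adjusted p = 0.938 and 0.625).

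Abcc1 encodes MRP1, the pump that exports glutathione conjugates, and had 2 probe sets. Its brighter set gave 10.98, 11.83 and 11.09 on KO arsenite arrays, against 10.53, 11.41 and 10.91 on untreated KO arrays. In WT cells arsenite arrays gave 11.04, 11.24 and 11.20, against 11.25, 11.32 and 11.26 untreated. Arsenite thus came with a higher value in each KO experiment (0.45, 0.43 and 0.17) and a lower one in each WT experiment (-0.21, -0.09 and -0.06). Neither response was called, at 0.35 ± 0.23 in KO and -0.12 ± 0.23 in WT cells (limma adjusted p = 0.428 and 0.916). The test of their difference, 0.47 ± 0.33, gave an unadjusted p of 0.181 and a limma adjusted p of 0.999. The other set gave 0.27 in KO and 0.10 in WT cells, so the opposite directions were not seen there. The KO minus WT difference was 0.14 ± 0.23 under arsenite and -0.33 ± 0.23 untreated, neither called. When the KO arrays of experiment 2 were left out it was -0.13 and -0.56, of which the untreated value passed (limma adjusted p = 0.00934).

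Abcc4 encodes MRP4, which exports cyclic nucleotides and conjugated organic anions. Its single probe set gave 8.13, 10.14 and 9.29 on KO arsenite arrays, against 7.98, 8.31 and 7.89 on WT arsenite arrays. Untreated KO arrays gave 7.96, 9.94 and 9.17, against 7.94, 8.30 and 8.05 on untreated WT arrays. KO was above WT by 1.83 and 1.41 in experiments 2 and 3 under arsenite but by 0.15 in experiment 1, so here experiment 1 was the KO experiment near the WT level. The difference was 1.13 ± 0.50 under arsenite (2.19-fold, limma adjusted p = 0.147, and 0.0199 with the block) and 0.93 ± 0.50 untreated (limma adjusted p = 0.248, and 0.0502 with the block). Without the KO arrays of experiment 2 these were 0.65 and 0.47 and did not pass (limma adjusted p = 0.28 and 0.461), nor did they with the block in addition (0.77 and 0.58, limma adjusted p = 0.0869 and 0.191). Without the KO arsenite array of experiment 1 the value under arsenite was 1.66 and passed (limma adjusted p = 0.0291).

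**Figure D3:**
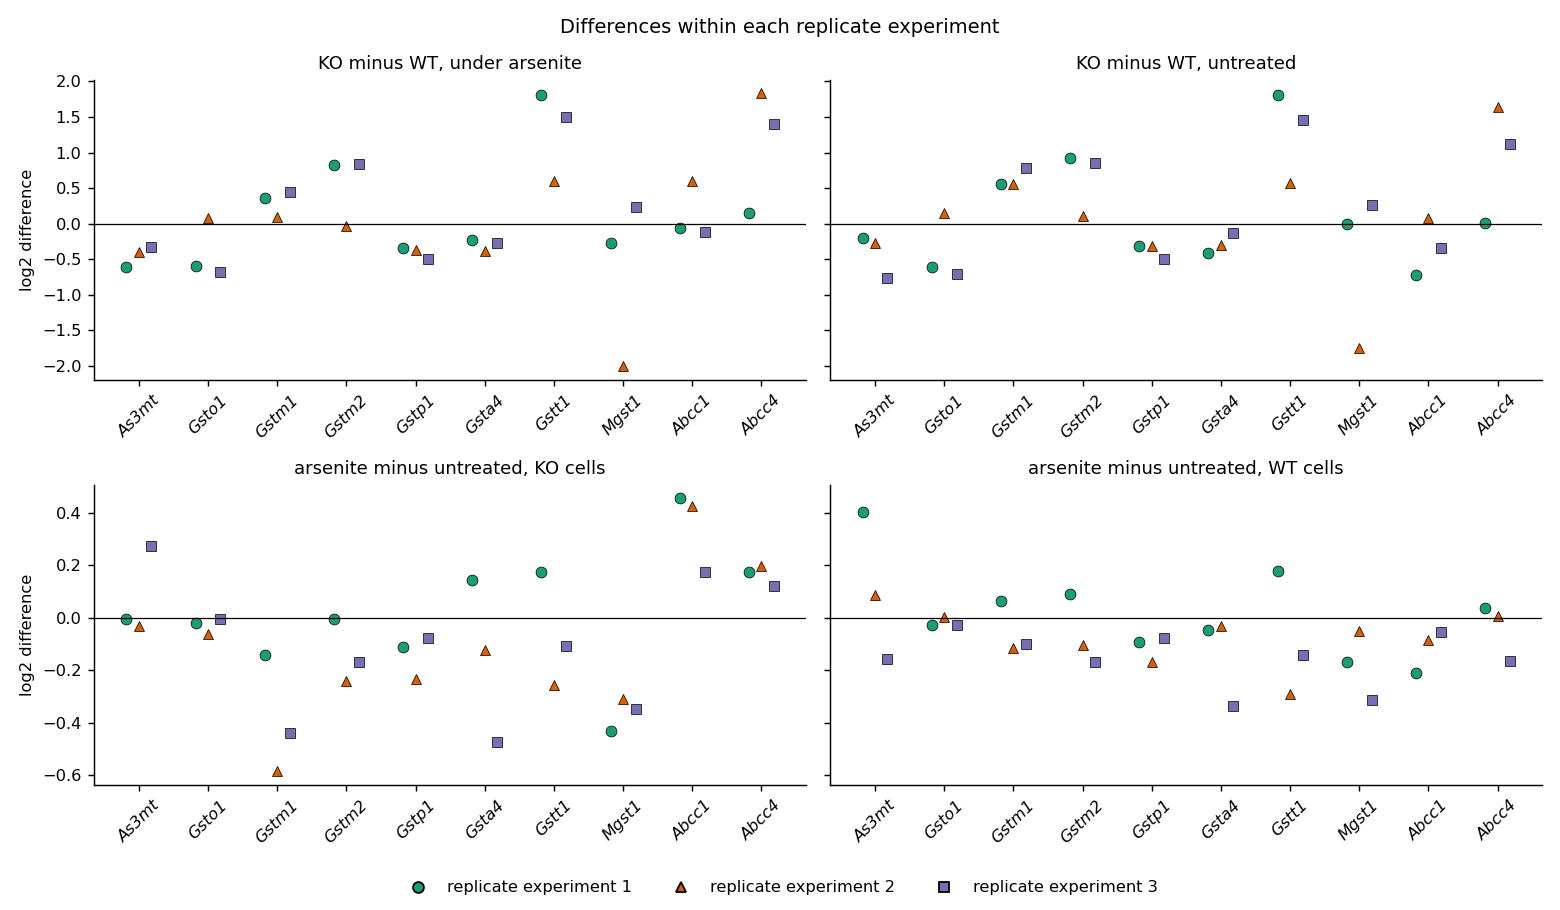
Log2 differences of the 10 genes are plotted within each of the 3 replicate experiments: KO minus WT under arsenite and untreated in the upper row, arsenite minus untreated in KO and WT cells in the lower row, which has a narrower axis. In the upper row experiment 2 is apart from the others for Gsto1, Gstm2, Gstt1 and Mgst1, and the 3 experiments lie together for Gstp1. In the lower row Abcc1 is above 0 in all KO experiments and below 0 in all WT experiments.

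With the KO arrays of experiment 2 left out of the whole fit, 4 members passed under arsenite (Gstm2 and Gstt1 higher, Gsto1 and Gstp1 lower), where 21.8% of all genes did. Untreated, 5 passed (Gstm2 and Gstt1 higher, Gsto1, Gstp1 and Abcc1 lower), where 21.4% did. With the replicate block in addition, the counts were 6 and 7 members, beside 28% and 27.6% of all genes. These fits have 2 KO arrays per treatment. Across the 12 arrays Gstm2 and Gstt1 varied together (Pearson's r = 0.964), and each ran against Gsto1 (r = -0.915 and -0.93), while Mgst1 ran against Abcc4 (r = -0.824). The arrays share genotype, treatment and experiment and include the KO arrays of experiment 2, so these are descriptions without a test.

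The 2 genes most alike to each member over the 12 arrays, among all genes with a mean above 5.35, were found by Pearson's r for the 9 members above that level. Gstt1 was closest to Smarca1 (0.996), a chromatin remodelling ATPase, and Cdo1 (0.987), the cysteine dioxygenase. Gstm2 was closest to Cnmd (0.982) and Islr (0.979). Gstp1 was closest to Slc25a14 (0.988), a mitochondrial carrier, and Sf3b5 (0.983), a splicing factor subunit. Gsto1 was closest to Spire1 (0.967) and Mthfd1l (0.966), a mitochondrial folate enzyme, and Gstm1 to Syt11 (0.961) and Rftn2 (0.95). Mgst1 was closest to Plxdc2 (0.963) and Mxra8 (0.939), Abcc4 to Rrp1b and Ngef (0.959 each), Abcc1 to Zfp511 (0.962) and Slc35d1 (0.929), and Gsta4 to the golgins Golgb1 (0.926) and Golga2 (0.913).

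The wider pathways were read from 5 lists, whose counts stand beside the shares of all genes called. For arsenite these were 7.55% in KO and 2.12% in WT cells, or 14.7% and 4.88% with the block. For KO against WT they were 21.1% under arsenite and 20.1% untreated, or 30.2% and 29.2% with the block. Without the KO arrays of experiment 2 the latter were 21.8% and 21.4% (no block). Among 11 measured genes of arsenic methylation and its cofactor supply, limma called 0 for arsenite in KO cells and 0 in WT cells, where 3 and 1 had an unadjusted p under 0.05. The share of all genes at that unadjusted threshold is not given here, so those counts have no background beside them. The median difference was -0.12 in KO and 0.01 in WT cells, against 0.03 and -0.01 over all genes. With the block 2 were lower under arsenite in KO cells: Mat2b, the regulatory subunit of a methionine adenosyltransferase, at -0.53 ± 0.11, and Ahcyl1, a relative of adenosylhomocysteinase, at -0.41 ± 0.09 (limma adjusted p with the block = 0.0102 and 0.0112, and 0.147 and 0.173 without it). Between genotypes 1 was higher and 0 lower under arsenite and 2 were higher and 0 lower untreated. Mtr, the methionine synthase, was higher by 0.95 ± 0.16 under arsenite and 0.86 ± 0.16 untreated (limma adjusted p = 0.00113 and 0.00212). Pnp, a purine phosphorylase able to reduce arsenate, was higher by 0.68 ± 0.14 untreated (limma adjusted p = 0.00392). With the block the list had 2 higher and 3 lower in both treatments. Leaving out the KO arrays of experiment 2 gave 1 higher and 3 lower under arsenite and 2 higher and 2 lower untreated, where Txnrd1, the thioredoxin reductase, passed at -0.88 ± 0.20 and -0.79 ± 0.20 (limma adjusted p = 0.0108 and 0.0185).

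Among 22 other glutathione transferases and related proteins, arsenite raised 1 in KO cells (Gdap2, by 0.68 ± 0.11, limma adjusted p = 0.00294) and 0 in WT cells, and lowered none. In WT cells Gdap2 stood at 0.34 ± 0.11 without being called (limma adjusted p = 0.185). The difference of responses passed for 0 of the 22. Untreated, Gdap2 was lower in KO than in WT cells, at -0.47 ± 0.11 (limma adjusted p = 0.00865). Gdap2 is named for a ganglioside-induced differentiation gene and has no established transferase activity. KO cells had 2 higher and 0 lower under arsenite, and 2 higher and 2 lower untreated. Mgst2, a microsomal transferase that makes leukotriene C4, was higher by 1.09 ± 0.33 under arsenite and 1.07 ± 0.33 untreated (limma adjusted p = 0.0341 and 0.0387). Gstcd, a protein with a transferase-like domain, was higher by 0.87 ± 0.12 and 0.94 ± 0.12 (limma adjusted p = 0.00036 and 0.000215). Gstm4, a neighbour of Gstm1 in the mu cluster, was lower untreated, at -0.86 ± 0.17 (limma adjusted p = 0.00344). The block gave 3 higher and 1 lower under arsenite and 3 of each untreated, and leaving out the KO arrays of experiment 2 gave 4 higher and 0 lower, and 4 higher and 3 lower. Gstm5, another mu class gene, and Gstt3, a neighbour of Gstt1, passed in that last fit, Gstm5 at 0.58 ± 0.14 under arsenite and 0.52 ± 0.14 untreated, and Gstt3 at 0.56 ± 0.10 and 0.34 ± 0.10 (limma adjusted p = 0.0123, 0.0212, 0.00281 and 0.0364). Among 14 other efflux pumps, arsenite changed 0 in either genotype, with 0 called also of the difference of responses. Abcg2, a pump for many drugs and for urate, was higher in KO cells by 0.40 ± 0.12 under arsenite and 0.37 ± 0.12 untreated (limma adjusted p = 0.0325 and 0.0473), calls that were lost without the KO arrays of experiment 2, where the differences were 0.30 ± 0.12 and 0.33 ± 0.12 (limma adjusted p = 0.117 and 0.0922). Abcb1a was lower under arsenite, at -0.71 ± 0.19, with both means under 5.35 (limma adjusted p = 0.0199). Abcb1b was not called untreated with all arrays, at -0.54 ± 0.33 (limma adjusted p = 0.305). It passed as lower in KO cells without the KO arrays of experiment 2, at -0.90 ± 0.21 (limma adjusted p = 0.0124). For this list the block gave 3 higher and 1 lower under arsenite, 2 higher and 1 lower untreated, and 1 lower with arsenite in KO cells.

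Among 10 measured routes of arsenic entry, 5 lay above 5.35 in some group. Arsenite raised 2 and lowered 1 in KO cells and raised 2 in WT cells. Slc2a1, the glucose transporter GLUT1, which can carry trivalent arsenic, gave 12.82, 12.96 and 12.64 on KO arsenite arrays, against 10.66, 10.95 and 10.88 on untreated KO arrays. WT arsenite arrays gave 12.64, 12.73 and 12.87, against 11.85, 11.94 and 11.86 on untreated WT arrays. The arsenite levels of the genotypes overlapped, and the untreated ones did not. It rose by 1.97 ± 0.11 in KO cells and 0.87 ± 0.11 in WT cells (limma adjusted p = 1.22e-06 and 0.00127), and the difference of responses, 1.11 ± 0.15, passed (limma adjusted p = 0.043). That difference was 1.09 ± 0.16 without the KO arrays of experiment 2 and did not pass there (limma adjusted p = 0.103). Slc20a1, a phosphate carrier, rose by 0.99 ± 0.24 in KO and 1.33 ± 0.24 in WT cells and was higher in KO cells by 1.13 ± 0.24 under arsenite and 1.47 ± 0.24 untreated. Slc20a2, the other carrier of that kind, fell by 0.43 in KO cells (limma adjusted p = 0.0136) and stood at -0.34 ± 0.09 in WT cells without being called. The arsenite calls of Slc20a1 and Slc20a2 in KO cells were also lost when those arrays were left out, with differences of 0.89 ± 0.24 and -0.45 ± 0.11 (limma adjusted p = 0.0738 and 0.0579).

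Among 28 genes of glutathione supply and NRF2 signalling, arsenite raised 6 and lowered 0 in KO cells and raised 6 and lowered 0 in WT cells. With the block 10 were higher and 1 lower in KO cells. Hmox1, heme oxygenase, rose by 4.78 ± 0.22 in KO cells and 4.85 ± 0.22 in WT cells. Chac1, which degrades glutathione, rose by 4.36 ± 0.41 in KO and 3.20 ± 0.41 in WT cells. Slc3a2, the heavy chain of the cystine transporter, rose by 1.01 ± 0.12 and 1.30 ± 0.12, in the same order. Maff, a small MAF partner of NRF2, rose by 3.03 ± 0.15 in KO and 1.39 ± 0.15 in WT cells, and its difference of responses passed (1.64 ± 0.22, limma adjusted p = 0.0319). Gclm and Gclc, the subunits of the enzyme that limits glutathione synthesis, were not called with all arrays and no block. With the block Gclm passed in KO cells, at 0.80 ± 0.14. Gclc then passed at 0.65 ± 0.16 in KO and 0.80 ± 0.16 in WT cells. In that order limma adjusted p was 0.00447, 0.0225 and 0.0185 with the block, and 0.107, 0.244 and 0.291 without it. Gclm also passed without the block when the KO arrays of experiment 2 were left out (0.81 ± 0.18, limma adjusted p = 0.0355). Between the genotypes 3 were higher and 5 lower in KO cells under arsenite, where 21.1% of all genes were called. Untreated, 3 were higher and 9 lower, where 20.1% were. The block gave 4 higher and 8 lower under arsenite and 4 higher and 11 lower untreated, beside 30.2% and 29.2%. Leaving out the KO arrays of experiment 2 gave 3 higher and 7 lower, and 3 higher and 9 lower, beside 21.8% and 21.4%. Higher in KO cells under arsenite were Txnip, by 2.31 ± 0.48, and Ggt7, by 1.51 ± 0.21 (limma adjusted p = 0.00472 and 0.000403). Nqo1, a quinone reductase and NRF2 target, was lower, at -1.64 ± 0.26 under arsenite and -1.82 ± 0.26 untreated (limma adjusted p = 0.000873 and 0.00046). Bach2, a repressor that pairs with small MAF proteins, was lower, at -4.22 ± 0.43 and -4.36 ± 0.43 (limma adjusted p = 3.73e-05 and 2.94e-05). Its signal ran from 4.21 to 6.24 on KO arrays, against 8.83 to 9.57 on WT arrays, and the KO means of both treatments lay under 5.35, where signal may be background.

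**Figure D4:**
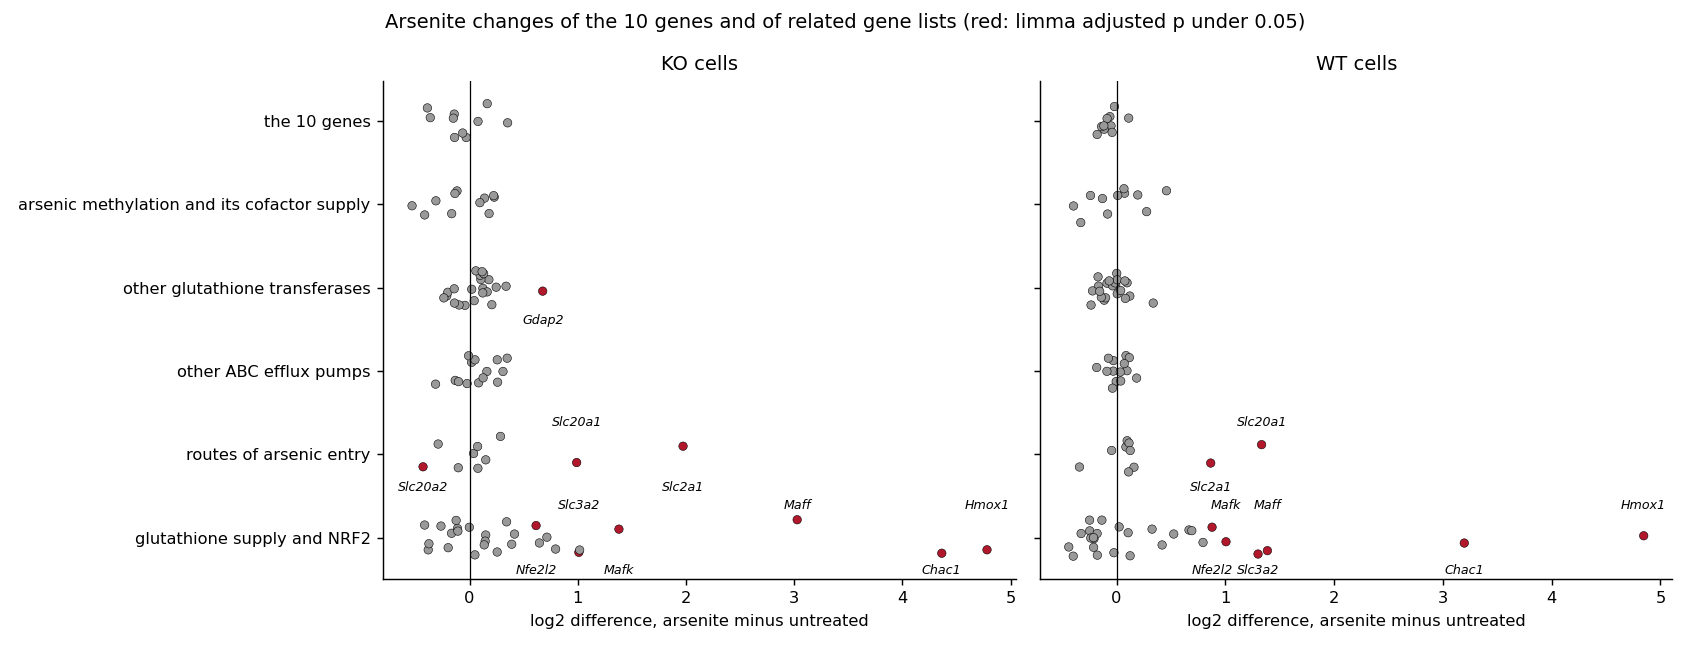
Log2 differences, arsenite minus untreated, are plotted for KO and WT cells, with a point per gene for the 10 members and the 5 lists, from limma without a block (3 arrays per group). Points in red passed an adjusted p of 0.05 and are named. The 10 members lie between -0.39 and 0.35, while Hmox1, Chac1 and Maff of the glutathione and NRF2 list lie at 1.39 or above in both genotypes.

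In the authors' deposited table, 0 of the 16 probe sets of the 10 genes passed the unadjusted p under 0.05 with a change over 0.5 in any of its 3 comparisons, which are arsenite in KO cells, arsenite in WT cells and KO against WT untreated. That table held 45101 probe sets in all, of which 2865, 1712 and 5754 passed in the authors' deposited table, in that order. For KO against WT untreated, Gstp1 and As3mt missed only the size limit there. Their differences were -0.37 and -0.41, with the authors' unadjusted p = 0.00189 and 0.0429. The same held for Gstp1 with arsenite in KO cells, at -0.14 (authors' unadjusted p = 0.0406).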

How the data were processed

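Per the labels' protocols, total RNA of cultured fibroblasts was labelled with biotin from 250 ng and read on Affymetrix Mouse430_2 arrays. The deposited values are log2 signals, 1 per probe set, made by the authors with RMA, a method that corrects background, equalises arrays and combines probes; RMA is named in the submitters' processing notes without a version. The full table also gives the authors' group means, differences and p-values for 3 comparisons, as deposited. Those p-values are unadjusted, and the sources used here do not name their test. The number of arrays limits the precision.

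The group of each array was read from the full table, whose named mean columns equal the mean of 1 array code within 1e-06. A shorter deposited table of 26382 probe sets carries sample labels that contradict this for 10 of 12 columns, and was used as an alternative grouping. No genome build is named with the arrays. Of 45101 probe sets, 38130 had 1 gene symbol, and the set with the highest mean stood for each of 20753 genes. Symbols were updated through RefSeq (GRCm38.p6) for 35046 matched probe sets.

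All 12 arrays were fitted with limma 3.58.1 (R 4.3.3, statmod 1.5.0) as 4 groups without a block, with 8 residual degrees of freedom and Benjamini-Hochberg adjustment over all genes in each of 5 comparisons. Tests were two-sided with a threshold of 0.05. The p-values measure the spread between replicate experiments, whose independence beyond that name the labels do not describe. Replicate numbers name shared experiments in the design text, and same-numbered arrays deviated together (18 pairs, r = 0.231 to 0.738, against -0.575 to -0.0106 for 36 other pairs), so the fit with the number as a block (6 degrees of freedom) is given where it changes a call. In 10 simulated data sets with 200 changed genes among 20753, the KO arsenite comparison called 39.4%, 84% and 97.7% of genes changed by 0.5, 1 and 2 (log2), and the difference of responses called 8.81%, 63.9% and 92.7%.

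The 10 genes, the pathway and marker lists and the tests were chosen with earlier results of these data known. Genes named are the 10, Ppp1r15a, and up to 4 called and 2 uncalled genes with the largest change per list and comparison. The 2 genes of most similar pattern per member are also named. Further list genes and markers (Gclc, Gclm, Gstm5, Gstp3, Gstt3, Thy1, Lum, Col1a1, Col1a2, Col3a1, Col5a1) were named after their values were seen. A gene of the arsenic methylation list is not reported here, and the list was counted without it.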

Additional observations from a re-analysis of the deposited data

How the results depend on the processing

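The count of members called was recomputed under each alternative. The share of all genes called can move with the alternative too, and for most alternatives it is not given here. Where no share is given, a changed count cannot be read as a result about the members. For KO against WT the shares were 21.1% under arsenite and 20.1% untreated, and 30.2% and 29.2% with the replicate block. Without the KO arrays of experiment 2 they were 21.8% and 21.4%, and 28% and 27.6% with the block. For arsenite in WT cells and for the difference of responses it stayed at 0 under every alternative run, and for arsenite in KO cells it was 1 with the replicate block and otherwise 0. KO against WT gave 2 members under arsenite and 2 untreated. The replicate block gave 4 and 5 (under arsenite and untreated, in this order from here on), and the experiment as a random block 4 and 5. With dim genes left out, with the probe sets of the shorter table, or at an adjusted p under 0.01, the counts were 1 and 1. The compared groups alone and a second quantile normalisation each gave 1 untreated and left 2 under arsenite. Counts of 0 and 0 came from leaving out probe sets that may match several transcripts, which removes the sets that read Gstp1 and As3mt, from the equal-variance test with a change over 0.5, and from grouping the arrays by the labels of the shorter table. Under those labels the As3mt difference was lost, at 0.0027 under arsenite and 0.0527 untreated. Without the KO arrays of experiment 2, a choice made after the data were seen, counts were 4 and 5, and 6 and 7 with the block. Leaving out 1 array at a time gave 1 to 3 and 1 to 4. Apart from the removals named, the cause was not tested. With 3 arrays per group, changes of 0.5 were mostly missed in the simulated data, but precision differed between members. Without a block, the 95% confidence intervals of the arsenite responses stayed under 0.5 in size for Gstp1 and As3mt. For Gstp1 they ran from -0.31 to 0.03 in KO cells and from -0.28 to 0.06 in WT cells. The As3mt signal may be background. The intervals of the other members reached past 0.5 in size, so a change of that size in them may have been missed.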
